A study of Mus musculus with 6 samples.

Results

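The Id genes Id1, Id2, Id3 and Id4, the bone morphogenetic protein (BMP) receptor genes Bmpr1a, Bmpr1b, Acvr1 and Bmpr2, and the signal transducer genes Smad1 and Smad5 were examined by RNA sequencing. They were taken by name, and all 10 were found among the 32564 genes of the tables, as 35 transcripts. The libraries were made from cells sorted by flow cytometry as quiescent neural stem cells from the subependymal zone, the stem cell layer beside the lateral ventricles. The mice were C56BL/6J animals (as the labels spell the strain), 3 months old, and carried gfap:GFP, a green fluorescent protein driven by the promoter of the glial gene Gfap. The sort followed by 3 days an intraventricular injection of artificial cerebrospinal fluid (aCSF, called vehicle here, 3 libraries) or of an antagomir, an oligonucleotide that blocks a microRNA, here miR-204 (3 libraries). The groups share the transgene, the age and the sort. The Gfap promoter is active in astrocytes as well as in stem cells, the labels do not give the animals per library, and they name no control oligonucleotide, so injecting an oligonucleotide and blocking the microRNA cannot be told apart. Nothing in the labels says that replicates are separate animals, so the p-values describe the scatter of these 6 libraries alone, and that scatter may be technical.

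BMPs are secreted ligands that join type I receptors (Bmpr1a, Bmpr1b, Acvr1) and type II receptors (Bmpr2) into one complex, in which the type I kinase phosphorylates Smad1 and Smad5. With Smad4 these enter the nucleus and switch on target genes, of which the Id genes are the best known. Id proteins have a helix-loop-helix for pairing but no basic region for binding DNA. They hold E proteins (Tcf3, Tcf4, Tcf12) away from their other partners, and in the subependymal zone BMP signalling and Id proteins are known for keeping stem cells undifferentiated and quiescent.

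The sequence of the microRNA that the antagomir was directed against is shown first, because each member was searched for its match. The mature strand (RefSeq, GRCm38.p6, chr19:22750610-22750631, plus strand) is printed with its seed, bases 2 to 8, in capitals.
miR-204-5p: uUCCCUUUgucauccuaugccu
The match to the seed is AAAGGGA on the transcript strand, or AAAGGGAA with a final A (8mer). In the annotated 3′ UTR of the most abundant coding transcript, 0 of the 10 genes held AAAGGGA, and 0 held it in any coding transcript of the tables. Among 13813 tested protein-coding genes with an annotated 3′ UTR, 1861 (13.5%) held it. The median 3′ UTR was 2174 bases for the 10 genes and 880 bases for all, from 397 bases in Id1 to 8529 in Bmpr2. The absence says only that these letters are not in these annotated stretches.

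The same letters were then looked for in the coding sequences, a search added after the 3′ UTRs had been read. They were present in 3 of the 10 genes, all of them receptors, and in 1890 of the 13813 genes (13.7%). The coding sequences of these 3 were 1509 (Bmpr1b), 1530 (Acvr1) and 3117 bases (Bmpr2) long, beside a median of 1347 bases over the 13813 genes. Each site is printed as the transcript reads, 22 bases with the match in capitals.
Bmpr1b: ttgctgcagatatcAAAGGGAc
Acvr1: cccagctgcccactAAAGGGAA
Bmpr2: caatattatgttccAAAGGGAg
The Bmpr1b window lies at chr3:141856619-141856640 on the minus strand and the Bmpr2 window at chr1:59813681-59813702 on the plus strand (GRCm38). The Acvr1 match is an 8mer and is split by an intron, so that it exists in the spliced transcript only. A match is a description and not a site of action.

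The 6 libraries held 14866453 to 19694409 estimated counts. The 12 quiescent stem cell and astrocyte markers (such as Gfap and Aldoc) summed to 13906 to 14013 TPM with vehicle and 10800 to 13931 TPM with antagomir, where TPM is a level per transcript length in which every library sums to the same total. Markers of other cells were also abundant: 8 oligodendrocyte genes (Mbp, Mog and others) summed to 6539 to 14064 and 11231 to 15499 TPM, and 8 ependymal genes (Foxj1, Tmem212 and others) to 4776 to 6092 and 3502 to 5840 TPM. The 10 neuroblast genes (Dcx, Sox11 and others) summed to 505 to 1065 and 765.4 to 1741 TPM, and 9 genes of activated stem cells and progenitors (Egfr, Mki67 and others) to 532.8 to 1388 and 913.8 to 1977 TPM. The 8 oligodendrocyte precursor genes (Pdgfra, Gpr17 and others) summed to 102.9 to 163.7 TPM with vehicle and 170.9 to 238.3 TPM with antagomir, without overlap. All 8 had fold changes above 0 (median log2 fold change 1.09), while 50.9% of all genes lay below 0. At an unadjusted p under 0.05 there were 3 of them, beside 4.1% of all genes, and 0 passed edgeR's adjusted threshold. Other lists also lay on 1 side of 0. Above it were 10 of 10 neuroblast genes (median 1.04, with Cd24a at 0.00) and 8 of 8 oligodendrocyte genes (0.33). Below it were 8 of 8 ependymal genes (-0.21) and 10 of 10 microglial genes (-2.18). Cd24a held 343.6 of the 506.2 TPM of the neuroblast sum in vehicle replicate 3 and 289.3 of the 1741 TPM in antagomir replicate 1. Vehicle replicate 1 stood apart by its 10 microglial genes (C1qa, C1qb and others), with 2072 TPM against 114.8 to 278.6 TPM in the other libraries. The 10 endothelial genes, whose cells also use Id1 and Id3, summed to at most 17.15 TPM, and Emcn was under 0.1 TPM in every library. In sorted bulk samples fewer cells of a type and less RNA per cell cannot be told apart.

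By mean TPM the Id genes were the most abundant of the 10, and Id4 led them. Over the 6 libraries Id4 averaged 859 ± 96.0 TPM (SD, n = 6), Id2 342 ± 47.0, Id3 294 ± 48.0 and Id1 60.4 ± 10.2 TPM. Only 0.706% of the 15012 tested genes had a higher mean TPM than Id4, against 2.12% for Id2, 2.62% for Id3 and 21.8% for Id1. Below them came Smad1 (50.2 ± 3.87 TPM), Bmpr1a (41.6 ± 7.42), Smad5 (27.7 ± 4.70), Bmpr1b (18.6 ± 4.96), Acvr1 (11.3 ± 2.88) and Bmpr2 (3.36 ± 0.779 TPM). Neighbours in this order were separated in every library pairing at 3 steps: Id4 lay 2.52 times above Id2, Id3 lay 4.86 times above Id1, and Acvr1 lay 3.37 times above Bmpr2. At the other 6 steps the ranges over the libraries overlapped, although Id2 was above Id3, Bmpr1a above Smad5, and Bmpr1b above Acvr1 in 6 of 6 libraries. Id1 was below Smad1 in antagomir replicate 1 (43.4 against 47.2 TPM). TPM is scaled by length, and in estimated counts the order differed. Id1 had 338 to 717 counts per library and Smad1 1294 to 1736, while Bmpr2 had 252 to 496 and Acvr1 177 to 404. The Id4 transcript in the authors' tables is 1660 bases long, whereas the annotation used here (GENCODE M21) gives 3849 bases, so its level rests on the shorter model.

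**Figure D1:**
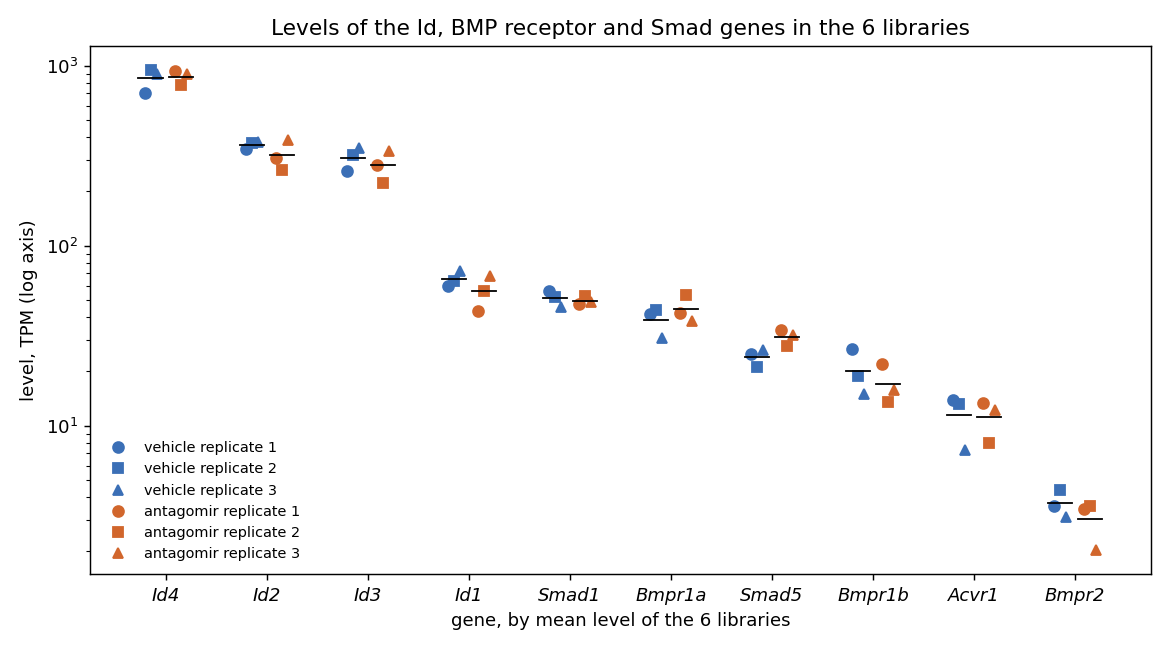
Level of each gene in TPM (log axis) in the 3 vehicle (blue) and 3 antagomir (orange) libraries, with a symbol per replicate and a black line at each group mean. Id4 stands at 706 to 946 TPM and Bmpr2 at 2.03 to 4.41 TPM, and Smad5 is the gene whose groups do not overlap.

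Antagomir and vehicle libraries were compared to ask whether these genes differed after the antagomir. Of the 10 genes, 0 passed edgeR's quasi-likelihood test at a Benjamini-Hochberg adjusted p of 0.05 over 15012 genes, and so did 0 of all genes (0%). Adjusted p-values of the 10 genes ran from 0.949 to 0.987. At an unadjusted p under 0.05 there was 1 of the 10, Smad5, beside 4.1% of all genes. Smad5 was higher with antagomir, as were 2.18% of all genes at that p, and 0 of the 10 were lower, beside 1.93%. DESeq2 called 1 gene, Frmpd4 (named after its value was seen), which is not among the 10, and limma-voom called 0. Levels in CPM (counts scaled to the library total with TMM factors) did not overlap between the groups for 1 of the 10 genes, beside 10.5% of all genes, so the share among the 10 is near the background. The fold change was below 0 for 8 of the 10 genes (median log2 fold change -0.16) and for 50.9% of all genes (median -0.006). Without vehicle replicate 1, the library with the high microglial sum, edgeR again called 0 of the 10 genes, and the log2 fold changes were -0.33 (Id1), -0.29 (Id2), -0.28 (Id3), -0.14 (Id4), 0.22 (Bmpr1a), -0.05 (Bmpr1b), 0.07 (Acvr1), -0.30 (Bmpr2), -0.04 (Smad1) and 0.43 (Smad5).

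**Figure D2:**
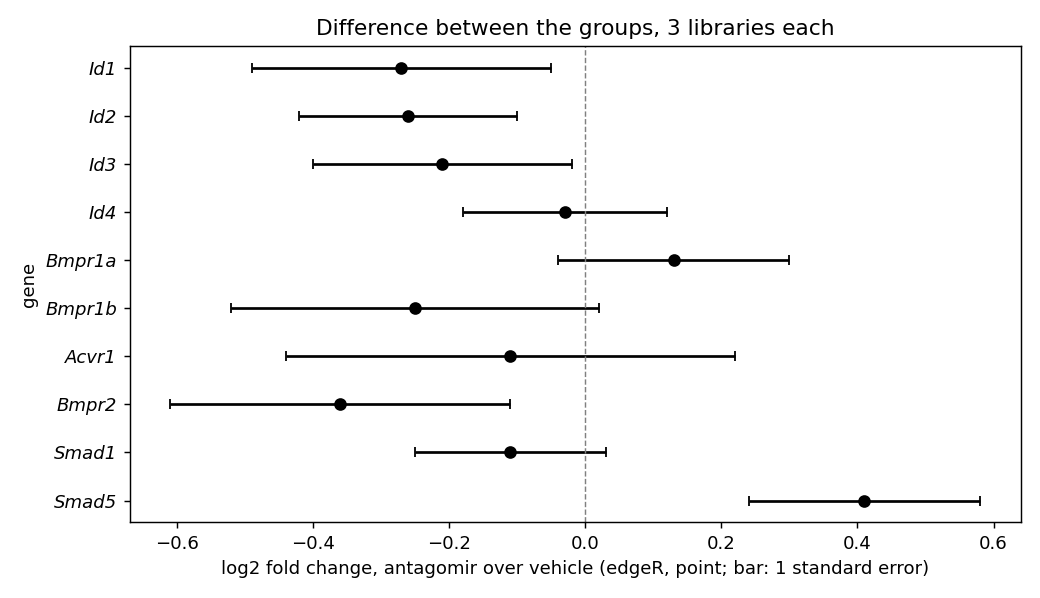
Log2 fold change of antagomir over vehicle for each gene (point), from edgeR over 3 libraries per group, with 1 standard error derived from the F statistic (bar). Smad5 is the highest at 0.41 ± 0.17 and Bmpr2 the lowest at -0.36 ± 0.25, and none passed the test.

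Among the Id genes, which encode the inhibitors, values below the vehicle range came from antagomir replicates 1 and 2, and antagomir replicate 3 lay within or above it. Id2, an Id gene widely used in the brain, measured 345, 369 and 378 TPM in vehicle replicates 1, 2 and 3 and 308, 264 and 384 TPM in the antagomir replicates. In TPM the antagomir libraries thus held both the lowest values and the highest one. In CPM vehicle replicate 3 was the highest (264.9, against 252.3 in antagomir replicate 3). The log2 fold change of Id2 was -0.26 with a standard error of 0.16 (edgeR adjusted p = 0.949). For Id2 it was -0.14 without antagomir replicate 2 and -0.41 without antagomir replicate 3. Id3 measured 260, 318 and 347 TPM with vehicle and 281, 222 and 335 TPM with antagomir. In TPM antagomir replicate 2 lay below the vehicle range, and in CPM antagomir replicate 1 did as well. The log2 fold change of Id3 was -0.21 ± 0.19 (SE, edgeR adjusted p = 0.950), with -0.05 when antagomir replicate 2 was left out, -0.10 when vehicle replicate 3 was and -0.35 when antagomir replicate 3 was. Id1, the classic early target of BMP signalling, measured 59.6, 63.3 and 72.3 TPM with vehicle and 43.4, 55.9 and 68.0 TPM with antagomir. Antagomir replicate 1 was the lowest of the 6, and the log2 fold change was -0.27 ± 0.22 (SE, edgeR adjusted p = 0.949). For Id1 it was -0.12 when antagomir replicate 1 was left out, -0.16 when vehicle replicate 3 was and -0.43 when antagomir replicate 3 was. Id4 measured 706, 946 and 896 TPM with vehicle and 928, 776 and 904 TPM with antagomir. Here the lowest library was vehicle replicate 1. The log2 fold change of Id4 was -0.03 ± 0.15 (SE, edgeR adjusted p = 0.987), and it turned to 0.04 when TPM values were tested with limma and to 0.03 to 0.05 without vehicle replicate 2, vehicle replicate 3 or antagomir replicate 2.

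Summed over the 4 Id genes, the level was 1371, 1697 and 1693 TPM in the vehicle libraries and 1560, 1318 and 1692 TPM in the antagomir libraries. The groups overlapped. Id4 supplied 51.5 to 59.5% of the sum and Id1 2.78 to 4.35%. The ratio of Id3 to Id2 stayed between 0.753 and 0.918. Antagomir replicate 2, the lowest library for Id2 and Id3, also had the lowest sum of the quiescent stem cell and astrocyte markers (10800 TPM), and antagomir replicate 1, the lowest for Id1, had the highest sum of the neuroblast markers (1741 TPM). Id4 was instead lowest in vehicle replicate 1 (706 TPM), where the quiescent and astrocyte sum was 13936 TPM. In antagomir replicate 1 Id4 measured 928 TPM, next to its highest value. The part of either marker set in the Id values was not tested.

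Profiles across libraries were compared as the mean absolute difference of log2 CPM after each gene was centred on its mean of the 6 libraries. Of the 45 pairs that the 10 genes form, Id2 and Id3 were the most alike (0.0668), followed by Bmpr1b and Acvr1 (0.109) and by Id1 and Id2 (0.138). Id4 was 0.158 from Id3 and 0.165 from Id2. Over all 15011 other tested genes, those most like Id4 were Ppp1r35 (0.0356), Ei24 (0.0369) and Cct7 (0.0401), where the median gene was 0.285 away. Those most like Bmpr1a, the most abundant receptor, were Ublcp1 (0.0435), Dnajc19 (0.0489) and Wdr26 (0.0526), with a median of 0.298. With 6 libraries from the same experiment such likeness is a description.

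**Figure D3:**
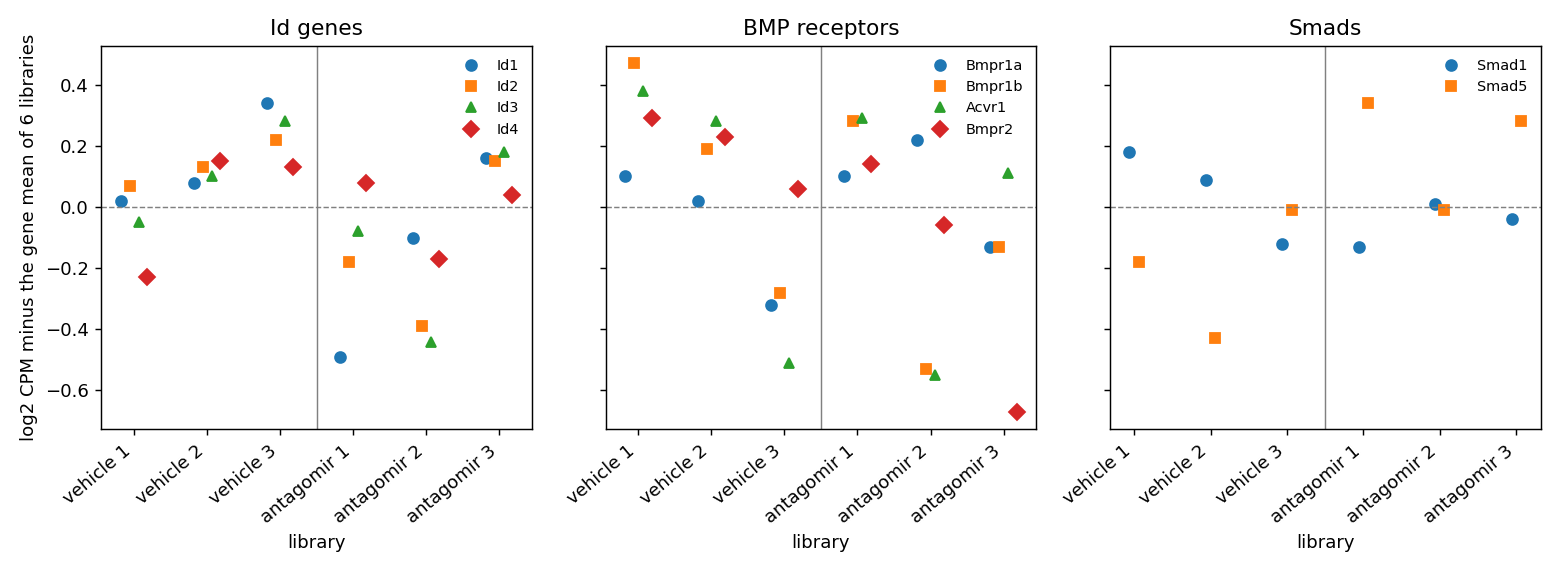
Log2 CPM of each gene minus its mean over the 6 libraries (vertical axis), by library, for the Id genes, the receptors and the Smads. Antagomir replicate 2 is below the mean for 4 of 4 Id genes, and vehicle replicate 3 and antagomir replicate 2 are the low libraries of Bmpr1b and Acvr1.

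The promoters of Id2, Id3 and Id4 are printed because Id2 and Id3 had the closest profiles of the 10 genes and Id4 was the most abundant. Each is the RefSeq window of 250 bases before to 50 after the annotated start (GRCm38.p6), read in the direction of the gene: chr12:25096043-25096342 (minus strand) for Id2, chr4:136143572-136143871 (plus strand) for Id3 and chr13:48260866-48261165 (plus strand) for Id4. Capitals mark GGCGCC, a GC-rich motif that Smad1 and Smad5 are known to bind.
Id2: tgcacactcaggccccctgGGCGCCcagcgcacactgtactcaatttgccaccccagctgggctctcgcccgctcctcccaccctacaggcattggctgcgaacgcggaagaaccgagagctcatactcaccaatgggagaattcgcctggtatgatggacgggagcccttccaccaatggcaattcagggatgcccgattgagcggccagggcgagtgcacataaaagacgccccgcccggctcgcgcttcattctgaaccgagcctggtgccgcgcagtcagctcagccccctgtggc
Id3: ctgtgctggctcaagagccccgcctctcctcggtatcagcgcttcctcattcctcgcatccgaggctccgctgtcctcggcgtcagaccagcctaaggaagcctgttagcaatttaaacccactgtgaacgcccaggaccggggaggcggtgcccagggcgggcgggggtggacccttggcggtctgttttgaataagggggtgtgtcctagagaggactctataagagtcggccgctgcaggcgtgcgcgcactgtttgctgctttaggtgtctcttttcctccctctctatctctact
Id4: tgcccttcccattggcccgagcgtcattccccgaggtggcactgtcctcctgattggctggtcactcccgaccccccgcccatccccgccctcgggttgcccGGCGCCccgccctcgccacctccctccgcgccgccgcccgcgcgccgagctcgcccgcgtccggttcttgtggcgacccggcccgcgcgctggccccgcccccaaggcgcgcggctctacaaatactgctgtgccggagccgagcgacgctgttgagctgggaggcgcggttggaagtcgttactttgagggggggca
GGCGCC reads the same on both strands. It was found once each in the Id2 and Id4 windows and not in that of Id3, so the 2 genes of closest profile differed in it. RefSeq windows were matched for 9 of the 10 genes, 13 windows in all, some of which overlap. GGCGCC was in 6 of the 13 (in Id2, Id4, Bmpr1a, Bmpr2 and, in 2 windows, Smad5), beside 11.9% of 32851 windows. The Smad-binding letters CAGACA, searched on both strands, were in 1 of the 13 windows (Bmpr1b) and in 21% of all. The E-box letters CANNTG, also the same on both strands, were in 5 of the 13 (in Id2, Bmpr1b and Smad5) and in 72.3% of all. A match is a description, and no match says only that these letters are not in the window.

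Among the receptors none passed the test, and in each of the 4 the groups overlapped. Bmpr1a, a BMP type I receptor, measured 41.6, 43.8 and 30.5 TPM with vehicle and 42.3, 53.1 and 37.9 TPM with antagomir. Only antagomir replicate 2 lay above the vehicle range (log2 fold change 0.13 ± 0.17 SE, edgeR adjusted p = 0.953). The value for Bmpr1a was 0.02 or 0.22 without vehicle replicate 3 or 1, and 0.05 or 0.23 without antagomir replicate 2 or 3. Bmpr1b, a closely related type I receptor, measured 26.56, 18.97 and 14.90 TPM with vehicle and 21.95, 13.46 and 15.77 TPM with antagomir. Its values spread nearly as widely within vehicle as over all 6 libraries (log2 fold change -0.25 ± 0.27 SE, edgeR adjusted p = 0.953). The value for Bmpr1b was -0.05 or -0.41 without vehicle replicate 1 or 3, and -0.06 or -0.48 without antagomir replicate 2 or 1. Acvr1, the type I receptor also called ALK2, measured 13.8, 13.2 and 7.30 TPM with vehicle and 13.3, 8.01 and 12.3 TPM with antagomir. Both groups held 1 low library and 2 high ones. The log2 fold change of Acvr1 was -0.11 ± 0.33 (SE, edgeR adjusted p = 0.976), and it turned to 0.07 without vehicle replicate 1 and to 0.11 without antagomir replicate 2. Bmpr2, the BMP type II receptor, measured 3.57, 4.41 and 3.10 TPM with vehicle and 3.44, 3.59 and 2.03 TPM with antagomir. Antagomir replicate 3 was the lowest library (log2 fold change -0.36 ± 0.25 SE, edgeR adjusted p = 0.949). In CPM antagomir replicate 2 (21.75) also lay below the lowest vehicle library (23.66). The value for Bmpr2 was -0.14 without antagomir replicate 3, -0.54 without antagomir replicate 1 and -0.58 with limma-voom sample weights (unadjusted p = 0.0387, adjusted p = 0.685).

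The 3 type I receptors summed to 70.2 ± 15.5 TPM with vehicle and 72.7 ± 6.01 TPM with antagomir (SD, n = 3 each). Bmpr1a made up 50.8 to 71.2% of this sum, the highest share being in antagomir replicate 2. The ratio of Bmpr1b to Bmpr1a was 0.253 in that library and 0.416 to 0.638 in the others. Per length the type I sum exceeded Bmpr2 by 17.0 to 32.5 times, and exceeded Bmpr2, Acvr2a and Acvr2b (the activin type II receptors that also take BMPs) together by 1.71 to 2.69 times. The leading transcript Bmpr2-201 is the longest of the 35 at 12899 bases, and Bmpr2 had 252 to 496 estimated counts per library.

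Smad5 was the member with the clearest gap between the groups. It measured 24.9, 21.1 and 26.3 TPM with vehicle and 33.9, 27.7 and 32.0 TPM with antagomir. All 3 antagomir libraries were above all 3 vehicle libraries. In CPM the values were 89.0, 75.0 and 99.9 against 127.9, 100.3 and 122.3, so the gap between the nearest libraries was small. The oligodendrocyte precursor sum was likewise higher in all 3 antagomir libraries. That sum was 118.7, 163.7 and 102.9 TPM with vehicle and 170.9, 208.4 and 238.3 TPM with antagomir. Within vehicle its order was the reverse of that of Smad5. Antagomir replicate 1 had the highest Smad5 and the lowest precursor sum of the antagomir libraries. The part of precursor RNA in the Smad5 values was not tested. The log2 fold change was 0.41 ± 0.17 (SE, unadjusted p = 0.0392, edgeR adjusted p = 0.949). It was 0.31 to 0.52 when each library was left out in turn. The unadjusted p was 0.05 or more in 7 of 17 alternatives and ran from 0.0124 to 0.134 over them. Levels without overlap were higher with antagomir for 5.07% of all genes and lower for 5.45%. The long coding transcript Smad5-201 measured 19.3, 18.5 and 21.7 TPM with vehicle and 33.3, 24.3 and 32.0 TPM with antagomir, a wider gap than for the gene. It made up 77.3, 87.7 and 82.3% of the gene's TPM with vehicle and 98.3, 87.5 and 100% with antagomir, so the groups overlapped in this share. The rest was given mainly to Smad5-202 and to the intron-retaining Smad5-206.

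Smad1, the partner of Smad5, measured 55.9, 52.1 and 45.4 TPM with vehicle and 47.2, 52.2 and 48.5 TPM with antagomir. In TPM it varied the least of the 10 genes (coefficient of variation 7.71% over 6 libraries), and the 3 antagomir values lay within the vehicle range. In CPM antagomir replicate 1 (78.71) lay just below the lowest vehicle library (79.41). The log2 fold change of Smad1 was -0.11 ± 0.14 (SE, edgeR adjusted p = 0.953). It ran from -0.18 without vehicle replicate 3 to -0.04 without vehicle replicate 1. Smad1 and Smad5 together summed to 75.3 ± 4.91 TPM with vehicle and 80.5 ± 0.586 TPM with antagomir (SD, n = 3 each), and the ratio of Smad1 to Smad5 was 1.72 to 2.47 with vehicle and 1.39 to 1.88 with antagomir. The ranges of the sum and of the ratio overlapped.

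Most of these genes were read from 1 leading transcript. The leading coding transcript held 100% of the TPM of Id2 and Id4, which had 1 transcript each in the tables, and on average 88.7% of Id1, 84.1% of Id3, 93.1% of Smad1, 88.9% of Smad5, 84.9% of Bmpr2, 76.7% of Bmpr1b and 70.2% of Bmpr1a. Acvr1 was the exception, with 36.9%, 31.9% and 26.6% in 3 coding transcripts of 2891, 2394 and 3050 bases. In Id3 the intron-retaining transcript Id3-203 took 7.76 to 20.6% of the TPM, and vehicle replicate 1 had the lowest share. In Bmpr2 the intron-retaining Bmpr2-202 took 27.6% in vehicle replicate 2 and 23.7% in antagomir replicate 2 but 4.09 to 10.8% elsewhere. In Id1 the longer transcript Id1-202 took 4.54, 9.54 and 11.2% with vehicle and 13.1, 17.1 and 12.2% with antagomir. These shares were singled out after the values were seen and were not tested, and Id1 as a whole had 338 to 717 estimated counts per library. The tables give no error of kallisto's assignment.

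The rest of the pathway was read from 7 lists of 59 genes, of which 45 could be tested. Of these 0 passed edgeR's test in either direction, beside 0% of all genes. At an unadjusted p under 0.05 there were 2 of the 45, beside 4.1% of all genes. Between the groups 7 did not overlap (15.6%, beside 10.5% of all genes). The 45 genes had a median log2 fold change of 0.08. Of 13 ligand genes 5 were tested (median -0.02), and Bmp6 was far the most abundant, with 191 ± 19.3 TPM with vehicle and 199 ± 50.3 TPM with antagomir. Bmp7 followed at 5.30 ± 1.41 and 6.03 ± 0.798 TPM, and Gdf5 at 4.41 ± 2.85 and 3.36 ± 2.16 TPM (SD, n = 3 each). Of 11 secreted antagonists 9 were tested (median -0.02), led by Twsg1, which binds BMPs together with chordin, at 42.7 ± 0.541 and 47.6 ± 9.16 TPM. Nbl1 measured 29.8 ± 6.90 and 28.6 ± 8.83 TPM, and Bmper 19.6 ± 3.56 and 23.2 ± 6.21 TPM.

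All 9 other receptors and co-receptors were tested (median 0.18), with Rgmb, a BMP co-receptor, at 24.2 ± 7.76 TPM with vehicle and 38.7 ± 19.5 TPM with antagomir, its relative Rgma at 32.2 ± 3.99 and 24.7 ± 7.29 TPM, and Acvr2b at 20.8 ± 6.85 and 25.1 ± 5.25 TPM. All 10 other Smads and intracellular regulators were tested (median 0.05). Smad4, the shared partner of the receptor-activated Smads, measured 81.1, 93.0 and 67.9 TPM with vehicle and 144.8, 99.7 and 113 TPM with antagomir. Its groups did not overlap, and its log2 fold change was 0.43 ± 0.19 (SE, unadjusted p = 0.047, edgeR adjusted p = 0.949). Tob1, an inhibitor of Smad signalling, measured 165 ± 36.1 and 206 ± 75.3 TPM, and the Smad cofactor Zfp423 67.2 ± 13.2 and 67.6 ± 12.5 TPM. The other 6 genes without overlap, named after their values were seen, were Acvr2a and Chrd, higher with antagomir, and Eng, Fst, Hey2 and Rgma, lower. Chrd, Eng and Fst were low, with means over the 6 libraries of 1.23, 1.35 and 0.996 TPM. Hey2 had the smallest unadjusted p of the 6 (0.0108) and a log2 fold change of -0.80 ± 0.24 (SE, edgeR adjusted p = 0.949).

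Of the 8 other reported BMP targets 7 were tested, with 3 fold changes below 0 and 4 above (median 0.02). Hey1, shared with the Notch pathway, measured 94.2 ± 10.9 TPM with vehicle and 84.8 ± 15.9 TPM with antagomir, Msx1 47.8 ± 7.78 and 59.1 ± 19.73 TPM, and the inhibitory Smad7 21.6 ± 1.23 and 22.5 ± 5.56 TPM. None of the 7 passed the test. Of the 9 other helix-loop-helix factors 6 were tested (median -0.06), led by Olig1 at 257 ± 92.7 and 339.5 ± 71.4 TPM, Hes5 at 261 ± 23.9 and 267 ± 82.3 TPM and Olig2 at 61.9 ± 26.2 and 61.6 ± 16.2 TPM (SD, n = 3 each).

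The E proteins, the partners that Id proteins hold, had fold changes above 0 in 3 of 3 genes. Tcf4 measured 345, 313 and 288 TPM with vehicle and 574, 348 and 352 TPM with antagomir. Tcf3 measured 71.9 ± 13.6 and 96.3 ± 21.7 TPM, and Tcf12 25.1 ± 4.38 and 33.4 ± 10.04 TPM. Their log2 fold changes were 0.33, 0.34 and 0.31 for Tcf4, Tcf3 and Tcf12, each with an edgeR adjusted p of 0.949. Per length the 4 Id genes exceeded the E proteins by 2.96, 4.23 and 4.54 times with vehicle and by 2.15, 2.74 and 3.73 times with antagomir. The groups overlapped in this ratio, which was lowest in antagomir replicate 1. That library also had the highest neuroblast sum, 1741 TPM, and vehicle replicate 1, with the lowest vehicle ratio, had the next, 1065 TPM. Antagomir replicate 2 broke this order: its ratio of 2.74 was below that of vehicle replicate 1, but its neuroblast sum was 814.9 TPM. The part of neuroblast RNA in the ratio was not tested.

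**Figure D4:**
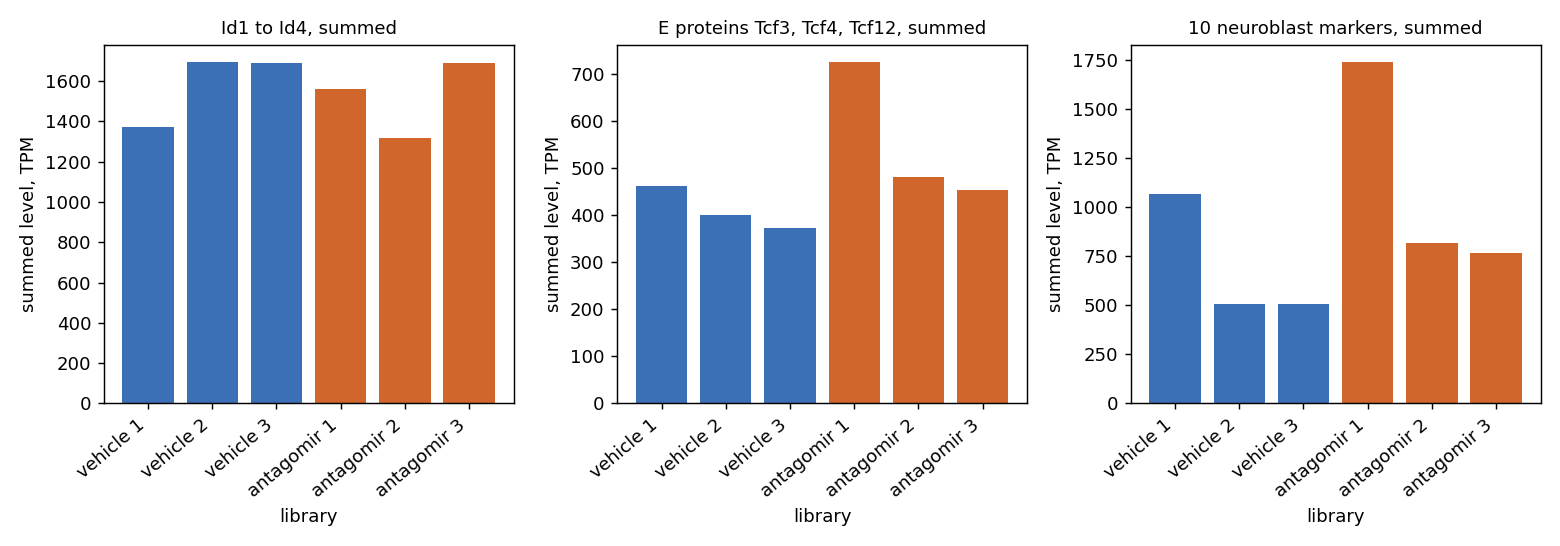
Summed TPM of the 4 Id genes, of the 3 E proteins and of the 10 neuroblast markers in each library (bars, vehicle blue, antagomir orange; each panel has its own scale from 0). The Id sum lies between 1318 and 1697 TPM in all libraries, while antagomir replicate 1 is highest for the E proteins (727 TPM) and for the neuroblast markers (1741 TPM).

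In GRCm38 (GENCODE M21) the Id genes lie at chromosome 2, 152736251 to 152737410 (Id1, ENSMUSG00000042745.9), chromosome 12, 25093799 to 25097140 (Id2, ENSMUSG00000020644.9), chromosome 4, 136143497 to 136145755 (Id3, ENSMUSG00000007872.3) and chromosome 13, 48261228 to 48266026 (Id4, ENSMUSG00000021379.2). Smad5 (ENSMUSG00000021540.16) lies at chromosome 13, 56703010 to 56742377, and Smad1 (ENSMUSG00000031681.16) at chromosome 8, 79338395 to 79399518. The receptors lie at chromosome 14, 34410734 to 34503341 (Bmpr1a, ENSMUSG00000021796.15), chromosome 3, 141837136 to 142169425 (Bmpr1b, ENSMUSG00000052430.15), chromosome 2, 58388644 to 58567157 (Acvr1, ENSMUSG00000026836.15) and chromosome 1, 59763400 to 59879014 (Bmpr2, ENSMUSG00000067336.6). The library kit does not mark strand, and 3 of the 10 genes share exonic bases with other annotated genes. These are Id4 (82 bases with A330033J07Rik and 171 with Gm49291, both antisense), Bmpr1a (290 with the antisense Gm17110) and Smad5 (100 with Gm27301), and reads over them cannot be told apart.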

How the data were processed

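Per the labels' protocols, low-input cDNA was sequenced as read pairs. Kallisto, sleuth and the build mm10 are named in the submitters' processing notes, without versions. What the authors deposited is, per the file headers, estimated counts for each transcript and TPM, the counts over effective length scaled to a fixed sum. Of 99567 transcripts 98294 (98.7%) matched GENCODE M21 by identifier, and the others, with 0.524 to 0.586% of the counts, were left out. Counts and TPM were summed per gene, and counts were rounded. Groups and replicate numbers come from the titles, since the treatment protocol field names the antagomir for every sample. Over 15 library pairs chi-square per gene was 23.7 or more, so none was a duplicate.

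The test of each gene was that of edgeR 4.0.16, run in R 4.3.3 (TMM, filterByExpr, robust quasi-likelihood, group as the only term, Benjamini-Hochberg over 15012 genes). It was also run on simulated counts, whose means and spread were taken from the fit of these data. Alternatives were other scaling factors, filters, DESeq2 1.42.0, limma 3.58.1 on counts and on log2(TPM + 1) or log2(TPM + 0.1), a replicate block, and each library left out. The standard errors given with edgeR fold changes were derived as the absolute log2 fold change over the square root of the test's F statistic. Log2 CPM used a prior count of 2. The members and lists were chosen with earlier results of these data known. Named genes were the 10 members, the 3 most abundant of each pathway list and the nearest 3 profiles, with exceptions named.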

Additional observations from a re-analysis of the deposited data

How the results depend on the processing

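Under 17 alternatives 0 of the 10 genes passed the threshold in any of 170 fits, and the smallest adjusted p was 0.5. The number of genes called over all genes was 0 in each except DESeq2, which called 1; leaving out each library gave 0 to 0. The direction held in all 17 for Id1, Id2, Id3, Bmpr1a, Bmpr1b, Bmpr2, Smad1 and Smad5. That of Id4 reversed in 5, to 0.04 with limma on log2(TPM + 1) and on log2(TPM + 0.1), and over the libraries left out it ran from -0.14 to 0.05. That of Acvr1 reversed in 2 and ran from -0.33 to 0.11. The cause of these reversals was not tested. By estimated counts in place of TPM, the leading transcript held 91.8% of Id3, 91.9% of Bmpr1a, 89.7% of Bmpr1b and 97% of Smad1. Replicate numbers are shared between the groups. The deviations of same-numbered libraries correlated at 0.195, 0.0749 and 0.0275, and those of differently numbered ones at -0.186 to 0.14. These values do not settle whether the numbers mark pairs. The main test did not take them as pairs, and a replicate block was run as an alternative. With a replicate block 0 genes were called, and 1284 genes lay at an unadjusted p under 0.05 against 616 without it. The log2 fold change of Smad5 was 0.41 with the block. The spread of these 6 libraries limits what could be called: the standard errors of the 10 genes were 0.14 to 0.33 on the log2 scale, and a difference of 0.41 with a standard error of 0.17 (Smad5) had an edgeR adjusted p of 0.949.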
